A study of Mus musculus with 2 samples.

Results

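The region described is the megabase of mouse chromosome 14 from 121000000 to 122000000 (mm8 build), taken as the region of the neighbouring genes Zic2 and Zic5. Its members are the PHF19 peaks of the authors' list that overlap this window, 13 of 3445 peaks (0.377%). They were found by chromatin immunoprecipitation with sequencing (ChIP-seq) in E14 cells, a pluripotent mouse embryonic stem cell line grown on gelatin with the cytokine LIF. One group is DNA recovered with a custom rabbit polyclonal antibody against PHF19 (PHF19 ChIP, 1 library), and the other is input DNA of the same cell line to which no ChIP antibody was applied (input, 1 library). The labels give no treatment and no change of genotype for either group, and no library shows how specific the antibody is. With 1 library in each group there is no replicate error, and a fold compares the reads of these libraries, not conditions.

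Zic2 and Zic5 encode zinc finger transcription factors of the Zic family, which act in the early patterning of the nervous system. Zic2 is known for its part in forebrain development, and loss of its function causes holoprosencephaly. Zic5 acts in neural crest and neural tube development. Zic genes often lie in divergent pairs, as Zic1 and Zic4 do on chromosome 9. Genes of this kind are classical targets of Polycomb repressive complex PRC2, which methylates histone H3 at lysine K27, in embryonic stem cells. PHF19 is a Polycomb-like protein that associates with PRC2, and Polycomb-like proteins can bind DNA rich in unmethylated CpG.

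The gene table used here, of the GRCm38.p6 assembly, places Zic5 next to Zic2 on chromosome 14, with no protein-coding gene and 1 long noncoding RNA, 2610035F20Rik, listed between them. The next protein-coding genes are Clybl, Tm9sf2 and Timm8a2 on the side of Zic5, and Pcca, Gm46487 and Ggact on the side of Zic2. The gene positions are of another build than the reads. No peak was therefore assigned to Zic2, Zic5 or a neighbour, and the placement of the pair in the window rests on the choice of window alone.

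Of the pair, Zic5 was present in the promoter table from RefSeq (GRCm38.p6). Its promoter is shown because CpG content is the sequence feature that Polycomb-like proteins are known for. The 250 bases before the start of the gene, chr14:122465659-122465908 (GRCm38.p6, minus strand), read 5′ to 3′ with each CpG in capitals:
Zic5: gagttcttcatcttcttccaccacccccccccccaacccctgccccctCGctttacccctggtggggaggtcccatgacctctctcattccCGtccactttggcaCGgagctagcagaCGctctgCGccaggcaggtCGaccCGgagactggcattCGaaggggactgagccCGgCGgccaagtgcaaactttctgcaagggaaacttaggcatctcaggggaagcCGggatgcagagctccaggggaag
These 250 bases hold 11 CpG, 4 of them in the 125 bases farther from the gene and 7 in the 125 bases nearer to it. Over the table's whole promoter window of 300 bases, Zic5 had 15 CpG, against a median of 7 over 32851 promoters, and 34.6% of promoters held as many or more. Its GC share was 62.7%, which 23.1% of promoters reached. The Zic1 promoter held 31 CpG, a count reached by 10.6% of promoters, and that of Zic4 held 8, reached by 48.7%. Set against the number expected from its C and G content, the observed CpG of Zic5 was 0.51, against a median of 0.384, and 41.3% of promoters reached it. By this ratio Zic4 (0.546) and Zic1 (0.969) both stood above Zic5. The Zic5 promoter was thus above the median in CpG, but many promoters held more. These counts describe the reference sequence only and were not set against reads.

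The values that chose the members are the authors' own peaks, which were called on these ChIP reads. Enrichment of ChIP over input at the members is therefore given as a description and supports nothing by itself. The 13 peaks lay within 84.9 kb and covered 15.7 kb of it. The first member began 541 kb inside the window, and the last ended 374 kb before the window's end, so no member lay near either edge. The nearest peak outside the window, at chromosome 14, 120169792 to 120171733, ended 1370 kb before the first member. No peak of the list lay beyond the last member, although reads reached 123978796 on this chromosome. Any other 1 Mb window of chromosome 14 held at most 6 of its 131 peaks. Of the 1378 windows of 1 Mb in the genome that held a peak, 10 held more peaks than the 13 here.

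With gaps of at most 10 kb, the members formed 3 groups. Reads were counted once per position and strand, and enrichment is given as the fold between the libraries after scaling each to its number of distinct reads. The first group was a single peak at 121541331 to 121542522, with 55 reads in the ChIP against 18 in the input, 3.41-fold enrichment (1.97 to 6.17, exact 95% interval for counting error only). The second group, at 121584847 to 121587197, was a pair of peaks 11 bp apart, with 83 reads in the ChIP against 30 in the input, 3.09-fold enrichment (2.01 to 4.86). The third group, at 121598328 to 121626279, held 10 peaks over 28.0 kb, with 467 reads in the ChIP against 143 in the input, 3.64-fold enrichment (3.01 to 4.43). The intervals of the 3 groups overlapped.

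**Figure D1:**
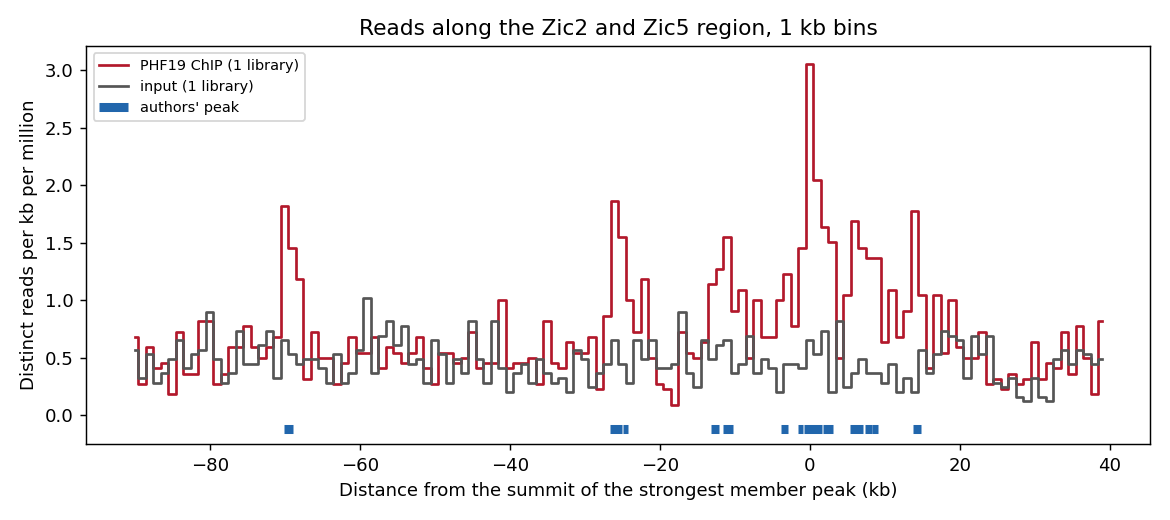
Distinct reads per kb and per 1000000 distinct reads of the library (vertical axis) in 1 kb bins along the region, by distance in kb from the summit of the strongest peak (horizontal axis), for PHF19 ChIP (red) and input (grey), with the authors' peaks as blue bars. The ChIP stands above the input at a single peak about 70 kb to the left, at a pair about 25 kb to the left, and over most of the group of 10 peaks around 0, while the input does not pass 1.02 in any bin shown.

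The strongest peak lay at 121610651 to 121613149 in the third group. It held 127 ChIP and 37 input reads, and at 2499 bp it was the widest of the 13. Its density was 2.31 ChIP and 0.604 input reads per kb per 1000000 distinct reads of the library (RPKM), a fold of 3.83 (2.64 to 5.68). It was also the only member in the upper quartile of the list by the authors' score, with 298.57 (rank 636 of 3445). The score is the authors' own value per peak, its scale is not stated, and it serves only to rank peaks within the list. The peak at 121613256 to 121614555, 106 bp farther on, held 53 reads in the ChIP against 16 in the input, 3.70-fold enrichment (2.08 to 6.93). The gap between both peaks held 1 ChIP read and 2 input reads, too few to show whether the signal dipped there.

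Further right in the same group, the peak at 121616885 to 121618548 held 63 reads in the ChIP against 20 in the input, 3.51-fold enrichment (2.10 to 6.14). On the left side of the group, the peak at 121599904 to 121601228 held 44 ChIP and 19 input reads and had the lowest fold of the 13, 2.58 (1.48 to 4.69). Of the pair that forms the second group, the wider peak at 121584847 to 121586483 held 58 reads in the ChIP against 22 in the input, 2.94-fold enrichment (1.77 to 5.05). The single peak of the first group was narrower, at 1192 bp, but its 2.10 RPKM in the ChIP were the second highest density of the 13. Its input density, 0.616 RPKM, was the highest of the 13.

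The other 7 peaks were small, with 21 to 43 ChIP and 5 to 13 input reads over widths of 687 to 1097 bp. They began at 121586495, 121598328, 121607566, 121609829, 121618815, 121619822 and 121625183. The last of these, which ended at 121626279 and closed the third group, held 43 ChIP and 9 input reads and had the highest fold of the 13, 5.33 (2.56 to 12.4). The peak at 121618815 to 121619722 held 31 reads in the ChIP against 7 in the input, 4.94-fold enrichment (2.13 to 13.3). The peaks from 121609829 and 121619822 held 22 and 21 ChIP reads against 5 input reads each, with folds of 4.91 (1.81 to 16.6) and 4.69 (1.72 to 15.9). The remaining 3 lay farther left. The narrower peak of the pair, from 121586495 to 121587197, held 25 and 8 reads (ChIP and input) and had a fold of 3.49 (1.52 to 8.94). The peaks from 121598328 and 121607566, at the left of the third group, held 29 and 34 ChIP reads against 12 and 13 in the input, with folds of 2.70 (1.33 to 5.80) and 2.92 (1.50 to 6.02). The 4 highest folds thus rested on at most 9 input reads each, and their intervals were the widest on the upper side. In contrast, the ChIP densities of these 7 peaks, 1.33 to 1.79 RPKM, lay within a narrow range.

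**Figure D2:**
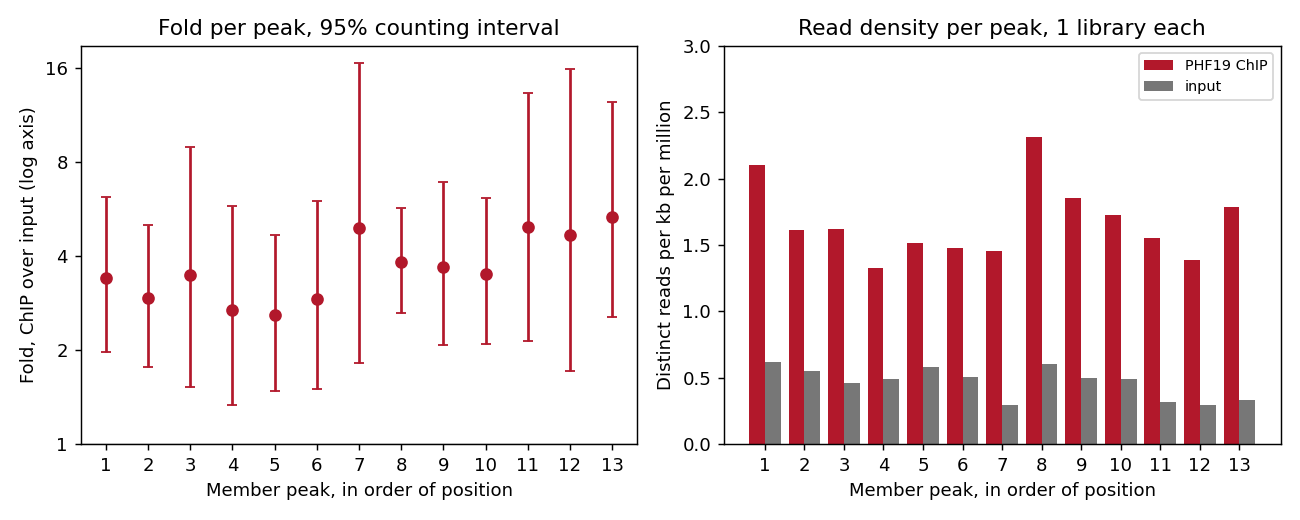
Left: fold of ChIP over input (log axis) for the 13 peaks in order of position, with exact 95% intervals for counting error. Right: density in RPKM in ChIP (red) and input (grey), 1 library each. Folds run from 2.58 to 5.33 with overlapping intervals, and the highest folds stand where the input bars are lowest. The fold divides by the input, so the latter is in part built in and nothing is read from it.

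The folds of the 13 peaks ran from 2.58 to 5.33 with a median of 3.51, against a median of 3.68 over all 3445 peaks. All 78 pairs of members had overlapping intervals, so the order of the folds is not firm at this depth. By position, the 6 peaks on the left had folds of 2.58 to 3.49 and the 7 from 121609829 onwards had 3.51 to 5.33, a split chosen after the values were seen. Since the folds themselves set this split, nothing further is read from it.

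Together the 13 peaks held 605 ChIP and 191 input reads, a joint fold of 3.53 (3.00 to 4.18). The other 3432 peaks had a joint fold of 3.56 (3.54 to 3.59), and the 118 other peaks of chromosome 14 had 3.73 (3.57 to 3.89). The members thus took a place in the middle of the list by fold, with 7 of 13 between its quartiles of 2.93 and 4.70. By size they were mostly below the middle. Only 3 of 13 were at or above the list's median width of 1425 bp, and 4 of 13 were at or above its median score. The lowest member score, 50.94, was close to the lowest of the list, 50.01.

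**Figure D3:**
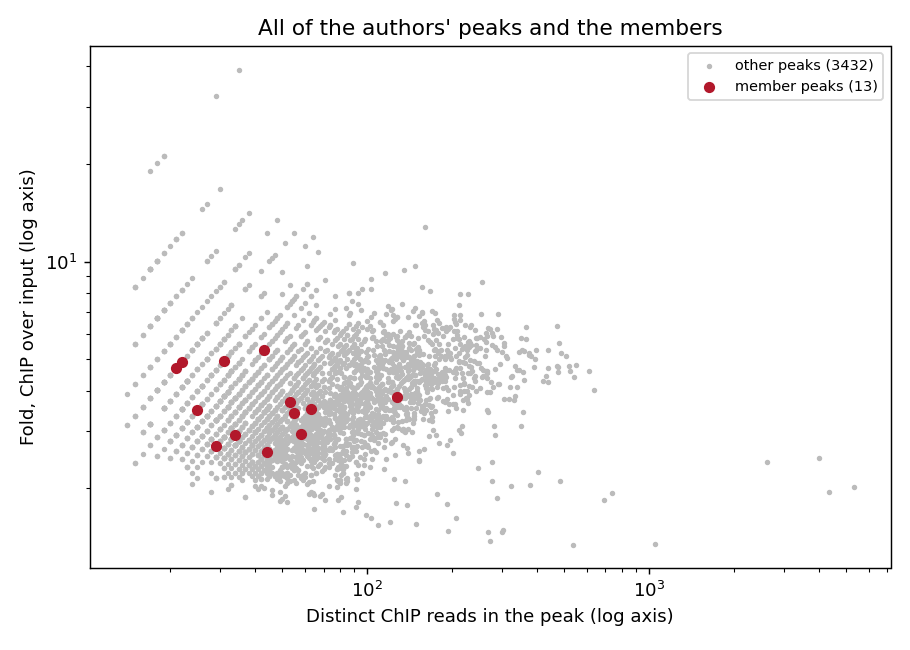
Distinct ChIP reads (horizontal log axis) and fold of ChIP over input (vertical log axis) for each of the authors' peaks, with the 13 peaks of the region in red and the other 3432 in grey. The 13 lie within the cloud, between 21 and 127 ChIP reads and between 2.58 and 5.33 in fold; the slanting rows at the left are peaks that share the same small number of input reads.

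An exact two-sided conditional binomial test over all 3445 peaks, Benjamini-Hochberg adjusted and with a minimum fold of 2, called 98.5% of the list. It called 13 of 13 members, with adjusted p from 2.61e-14 to 0.00298. Since the list was made from the same reads, nothing is read from this count. In a genome-wide test of 1 kb bins (exact one-sided conditional binomial test, Benjamini-Hochberg over 2531234 bins), 0.157% of bins were called. Of the 1000 bins of the window, 8 were called, and all 8 touched a member. The bin from 121611001 in the strongest peak held the most reads, 73 ChIP and 17 input, a fold of 4.79 (2.80 to 8.67). The bins from 121612001, 121625001 and 121617001 held 40 ChIP reads each against 13, 6 and 10 input reads, folds of 3.43, 7.44 and 4.46. The bin from 121586001, across the pair of the second group, held 37 and 11 reads, a fold of 3.75.

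Called bins touched 8 of the 13 members (61.5%), against 63.9% of all peaks. The untouched members were the single peak of the first group, the 3 peaks from 121598328, 121599904 and 121607566 on the left of the third group, and the peak from 121618815. No bin of the window outside peaks was called by this exact binomial test, where 0.00702% of such bins in the genome were. At an unadjusted p under 0.05, 53 of 975 such bins (5.44%) were higher in the ChIP, where 3.54% of all bins outside peaks in the genome were. Nothing is read from these shares, since the window was chosen for its peaks in the same reads.

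Between the peaks of the third group, ChIP reads did not fall to the level of the input. The 15.7 kb between its 10 peaks held 282 reads in the ChIP against 160 in the input, 1.97-fold enrichment (1.61 to 2.40). The gap of 4670 bp before the last peak held 88 reads in the ChIP against 37 in the input, 2.65-fold enrichment (1.79 to 4.01), close to those of the weakest peaks in the region. The gap of 6337 bp after 121601228 held 109 and 67 reads, a fold of 1.82 (1.33 to 2.50). The other gaps of the group over 1 kb, of 1214 and 2329 bp, had folds of 1.95 (0.917 to 4.35) and 1.59 (0.959 to 2.68). Their intervals included 1, so at these counts an excess in either of these gaps alone is not established. The 11.1 kb between the second group and the third had a fold of 1.17 (0.921 to 1.50), and the 42.3 kb between the first and second had 1.16 (1.02 to 1.32). Over its whole span the third group held 749 reads in the ChIP against 303 in the input, 2.76-fold enrichment (2.41 to 3.16), and 37.7% of those ChIP reads lay between the peaks. Of the 29 bins of 1 kb touching this span, 27 had a fold over 1 and 23 a fold of at least 2. Among the 915 bins of the window over 10 kb from any peak, 50.8% had a fold over 1 and 9.18% a fold of at least 2. The 29 bins include those in the peaks, which were called on these same reads, so nothing is read from this contrast.

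Outside the peaks, the fold fell off within a few kb. Bins within 2 kb of a peak but not touching one had a fold of 1.51 (1.28 to 1.80; 324 ChIP and 239 input reads). Between 2 and 5 kb away the fold was 1.11 (0.919 to 1.33), and from 5 to 10 kb it was 1.04 (0.859 to 1.25). In the rest of the genome the same distances gave 1.33 (1.32 to 1.34), 1.10 (1.10 to 1.11) and 1.05 (1.05 to 1.06). The rest of the genome lay within the interval of the window at each of these distances. Farther out, the window's fold was 1.07 (0.935 to 1.23) from 10 to 20 kb and 1.07 (0.956 to 1.19) from 20 to 50 kb. It was 0.965 (0.885 to 1.05) from 50 to 100 kb. Over 100 kb from a peak the window had a fold of 1.01 (0.978 to 1.04). All bases of the window outside peaks, those close to peaks included, together had a fold of 1.04 (1.01 to 1.07).

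**Figure D4:**
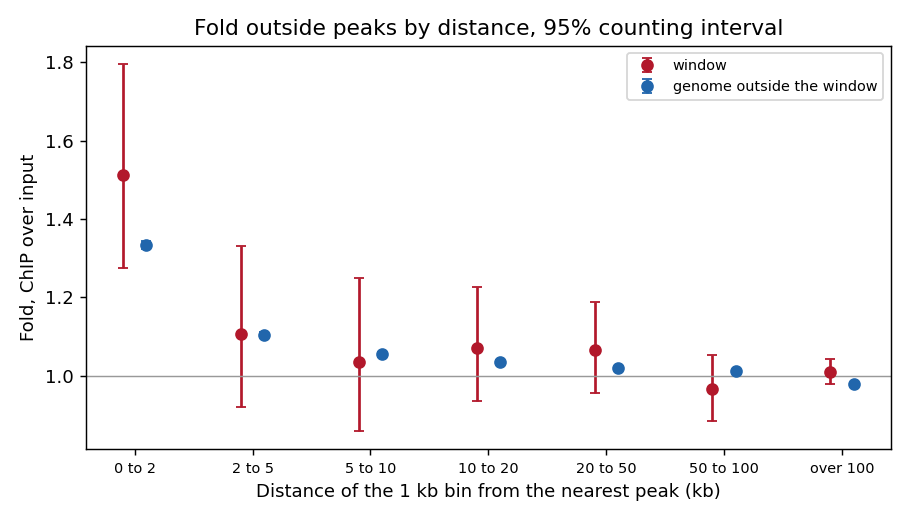
Fold of ChIP over input (vertical axis) in 1 kb bins that touch no peak, grouped by distance from the nearest peak in kb (horizontal axis), for the window (red) and the rest of the genome (blue), with exact 95% intervals for counting error. The window's fold is 1.51 within 2 kb and lies near 1 beyond 2 kb, with intervals that reach 1.

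Groups of similar make-up were sought among the 2502 groups of the list, taking those with 9 to 11 peaks and ranking them by the summed absolute log2 differences in joint fold and span from the third group. There were 4 such groups elsewhere. The most alike lay at chromosome 19, 44787484 to 44815401, with 10 peaks over 27.9 kb and a fold of 4.55 (3.89 to 5.33). The next, at chromosome 2, 18590148 to 18617726, had 9 peaks over 27.6 kb at 4.87 (4.01 to 5.95). The last named, at chromosome 2, 74524042 to 74564487, had 10 peaks over 40.4 kb at 3.87 (3.34 to 4.50). All 4 had a higher joint fold than the 3.64 of the group in this region, and these differences were not tested. Since closeness in fold was part of the ranking, no likeness in fold is read from these values. Between their peaks the 3 named groups had folds of 2.27 (1.76 to 2.95), 1.82 (1.48 to 2.24) and 2.23 (1.87 to 2.68), beside 1.97 (1.61 to 2.40) in this region.

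Input reads were moderately dense throughout the window. Outside peaks, the window held a median of 11 input reads and 10 ChIP reads per 1 kb bin. Over the bins of chromosome 14 that held an input read, the median was 8 input reads. Each ratio to a chromosome's median below sets reads per kb over a region against such a median of bins, which are unlike measures. The input density in the members was 1.52 times the median of the chromosome, with single peaks from 0.904 to 1.89 times. The other peaks of chromosome 14 together stood at 1.67 times and all other peaks of the list together at 1.81 times the same median. Raised input was therefore not particular to the members. By single peak, each against the median of its own chromosome, the middle value was 1.51 times for the members and 1.33 times over all peaks. The window outside peaks stood at 1.37 times the median of chromosome 14. Most of the members' excess was thus shared with the surroundings, and the members were 1.11 times as dense as those. The part of this in the folds was not tested.

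Over the whole libraries, 54.7% of ChIP and 53.8% of input reads lay on the plus strand. In the members no imbalance was detected against the share over all peaks. Of the ChIP reads, 51.6% (47.5 to 55.6, exact binomial interval) lay on the plus strand, against 50.6% over all peaks, and of the input reads 47.1% (39.9 to 54.5). An exact two-sided binomial test per peak, adjusted over all 3445 peaks, called 1.02% of the list for strand imbalance and none of the 13 members, none of which had an unadjusted p under 0.05 either (lowest 0.205). Single peaks ranged from 36.4% to 57.1% plus-strand reads, the lowest value on 22 reads. Duplicate reads were few. Removal of repeated positions took 6.06% of the members' ChIP reads and 2.05% of their input reads, against 8.38% and 7.33% in the whole libraries.

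Within peaks, the densest 200 bp of ChIP reads held 10 to 20 reads, against 1 to 6 input reads at the same place. That place was chosen for its ChIP reads, so an excess over input there is fixed by the choice. Nothing is read from it. The summit of the strongest peak, at 121611442, had 19 ChIP and 4 input reads in 200 bp, and that of the single peak, at 121541833, had 20 and 6. The differences between summits rest on such small counts and were not tested. The summit of the single peak lay 69.6 kb to the left of that of the strongest peak, and that of the last peak 14.1 kb to its right.

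The depth sets how finely these values can be read. Of 23965625 aligned ChIP reads, 21957101 were distinct in position and strand, as were 24496988 of 26433784 input reads. With 21 to 127 ChIP reads per member, a single fold had an interval that spanned at least a factor of 2, so the joint values are the firmer ones. Repeated reads of the same position and strand were removed before counting. The intervals take the remaining reads as independent, which was not tested, so they may be too narrow even for counting error.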

How the data were processed

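ChIP-seq reads of 1 PHF19 ChIP and 1 input library of E14 cells were used. The authors deposited 1 line of position and strand for each aligned read, and every line spanned 42 bases. Per the submitters' processing notes the build was mm8 and the tool Bowtie; its version and its handling of multiply matching reads are not stated. The deposited peak list carries a score per peak and is called MACS peaks per the file headers, which name neither the settings nor the control.

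Reads were kept once per 5′ end and strand and moved inwards by 54 bp, 0.5 of the strand lag of 108 bp in the input. The ChIP library's own lag, 41 bp, was near the read length and was not used. Among lags of at least 60 bp the ChIP library's strongest was 65 bp, shorter than that of the input, and it was not used either. Reads were counted per peak, per group of peaks (gaps of at most 10 kb) and per 1 kb bin, where bins needed 5 reads or more over ChIP and input. Fold intervals are exact (Clopper-Pearson, 95%). Peaks and bins were called at an adjusted p of 0.05 and a fold of 2; an input count of 0 was set to 3. The tests were checked on simulated counts drawn around the input counts with counting error only. That is the model the tests assume, so the check does not cover other sources of spread. The members and the comparisons were chosen with earlier results of these data known. The 6 peaks with the most ChIP reads were described singly, with the others by range and position; further values of other peaks were chosen after they were seen. Alternatives changed the handling of duplicates, the scaling, the shift, the thresholds, the bins, the gap and the peak set. Promoters came from RefSeq tables (3 of the 4 Zic genes looked up matched). Software: scipy 1.17.1 for the tests, numpy 2.4.6 and pandas 2.3.3 for counting, matplotlib 3.10.9 for plots, under Python 3.11.15.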

Additional observations from a re-analysis of the deposited data

How the results depend on the processing

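Of 112 values recomputed under alternatives, 108 stayed within the counting interval (folds and shares) or within 1.5 times (counts), 4 moved, and none reversed. Of the 108, 65 were folds of single members, which have wide intervals. The alternatives that changed only the scaling multiplied every fold by a common factor. The count of 108 is therefore no measure of how stable the values are. The joint fold of 3.53 ranged from 3.15, with peaks widened by 500 bp, to 3.83, with the upper quartile of the list by score, which left 1 member. The 4 that moved were counts: at a fold of 4, enriched members numbered 4 in place of 13 and called bins 5 in place of 8; by score 1 member remained to be called; and with 500 bp bins, which hold fewer reads each, 5 bins were called. The number of peak groups was 3 with gaps of at most 10 kb, 4 with gaps of at most 5 kb and 2 with at most 20 kb. These changes lay within 1.5 times and so count among the 108, but the layout in groups depends on the gap allowed. Scaling by the window's own reads outside its peaks, an alternative chosen after the data were seen, gave a joint fold of 3.41. Folds of single members lay between 2.49 and 6.28 under all alternatives run for them. With 1 library per group, no replicate could be left out. No paired analysis was possible because there is 1 library per group. Single folds are limited by 5 to 37 input reads per peak.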
